A study of Mus musculus with 4 samples.

Results

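The HoxD cluster is a row of 9 Hox genes on mouse chromosome 2, Hoxd13, Hoxd12, Hoxd11, Hoxd10, Hoxd9, Hoxd8, Hoxd4, Hoxd3 and Hoxd1, in that order. Open chromatin at these genes was read from ATAC-seq, in which the Tn5 transposase inserts sequencing adapters where chromatin is accessible, in the posterior forelimb buds of 2 wild-type (WT) and 2 Shh-/- embryos at E10.5 (35 somites). Each library was made from the pair of posterior forelimb fractions of a single embryo, with 5000 cells in the reaction and 18 PCR cycles. WT embryos were Swiss Webster, and Shh-/- embryos carried the null allele Shh tm1amc, kept on the same background, so that no cell in them makes the ligand Sonic hedgehog (SHH). The deposited data are 1 list of called peaks per library, with positions in mm10.

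A peak was taken as a HoxD peak if it overlapped the body of a Hoxd gene or the 5 kb on either side. Of 75101 peaks in the 4 lists, 36 met this rule, and they merged into 21 of 44692 regions, a region being a stretch covered by overlapping peaks of any library. The window ran from chr2:74663310-74770142 and was 106.8 kb long, of which 102.3 kb lay inside the gene windows. The 800 kb beyond each end were read as well. The centromeric flank, on the Hoxd13 side, held 25 peaks in 13 regions, and the telomeric flank, on the Hoxd1 side, held 23 peaks in 14 regions.

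Hox genes encode homeodomain transcription factors that give cells their position along an axis, and genes within a cluster are switched on in the order in which they lie. In the limb bud the genes at the Hoxd13 end are active in the posterior mesenchyme. The gene-poor stretches on both sides of HoxD are known to hold enhancers, with the telomeric side driving the early and proximal phase of Hoxd expression and the centromeric side the later phase in the digits. Posterior HOX proteins are needed for Shh expression in the limb, and SHH signaling in turn keeps posterior Hoxd genes active by removing the repressor form of GLI3.

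A short set of sequences shows stretches called in 1 genotype alone and stretches called in both. They are 200 bp of the plus strand of GRCm38.p6 (RefSeq), the assembly of mm10, centered on the summit of whichever peak of the region ranked best. The Hoxd12 upstream stretch (chr2:74673991-74674190) is the single HoxD region with a match to the GLI consensus, shown in capitals. That match has 1 mismatch and lies on the minus strand. The Hoxd11 coding exon stretch (chr2:74682811-74683010) belongs to the single HoxD region called in both WT libraries and in neither Shh-/- library. The Haglr exon stretch (chr2:74749690-74749889) belongs to the single HoxD region called in Shh-/- replicate 1. A pair of flank regions was called in both Shh-/- libraries and in neither WT library (chr2:74265156-74265355 and chr2:75515984-75516183). Of the flank regions away from protein-coding promoters that were called in 3 libraries, a centromeric and a telomeric example are given (chr2:74380840-74381039 and chr2:74930748-74930947).
Hoxd12 upstream: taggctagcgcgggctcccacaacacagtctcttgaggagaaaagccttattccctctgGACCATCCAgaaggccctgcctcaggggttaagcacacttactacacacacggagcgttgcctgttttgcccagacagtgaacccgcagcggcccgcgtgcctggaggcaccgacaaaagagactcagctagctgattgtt
Hoxd11 coding exon: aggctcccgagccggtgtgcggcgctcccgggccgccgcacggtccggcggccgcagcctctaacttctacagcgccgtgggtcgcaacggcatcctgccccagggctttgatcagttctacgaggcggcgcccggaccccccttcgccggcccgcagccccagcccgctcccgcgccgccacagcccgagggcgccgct
Haglr exon: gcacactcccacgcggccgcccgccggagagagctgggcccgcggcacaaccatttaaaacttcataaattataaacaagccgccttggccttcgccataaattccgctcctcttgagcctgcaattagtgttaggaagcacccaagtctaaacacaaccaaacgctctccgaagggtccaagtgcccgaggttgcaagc
Centromeric flank, Shh-/- pair: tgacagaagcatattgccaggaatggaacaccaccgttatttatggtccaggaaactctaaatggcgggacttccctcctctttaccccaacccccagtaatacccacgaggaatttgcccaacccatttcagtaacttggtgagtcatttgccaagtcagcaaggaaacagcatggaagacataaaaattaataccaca
Telomeric flank, Shh-/- pair: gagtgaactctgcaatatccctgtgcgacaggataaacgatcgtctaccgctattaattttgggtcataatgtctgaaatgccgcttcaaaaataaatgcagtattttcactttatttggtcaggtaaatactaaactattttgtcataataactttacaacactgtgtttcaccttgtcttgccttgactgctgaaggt
Centromeric flank, 3 libraries: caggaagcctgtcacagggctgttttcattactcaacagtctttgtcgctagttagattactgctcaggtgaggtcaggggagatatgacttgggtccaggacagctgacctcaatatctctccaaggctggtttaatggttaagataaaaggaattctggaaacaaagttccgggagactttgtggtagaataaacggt
Telomeric flank, 3 libraries: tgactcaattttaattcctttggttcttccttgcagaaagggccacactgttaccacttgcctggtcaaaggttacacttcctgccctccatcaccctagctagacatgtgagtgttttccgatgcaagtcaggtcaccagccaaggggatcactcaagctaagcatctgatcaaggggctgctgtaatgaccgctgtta

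The Hoxd11 coding stretch had a GC content of 76.5%, the Hoxd12 upstream stretch 57.0% and the Haglr stretch 55.0%. The stretches called in the Shh-/- pair alone had 45.0% in the centromeric flank and 37.0% in the telomeric flank. Over all regions the median was 57.5% in the cluster, 47.0% in the centromeric flank and 47.5% in the telomeric flank, beside 55.5% genome-wide. The libraries themselves differed in this measure. The median GC content around the summits of a whole list was 56.0% for WT replicate 1 and 63.0% for WT replicate 2. It was 56.5% for Shh-/- replicate 1 and 61.5% for Shh-/- replicate 2. The part of GC content in which peaks were called was not tested.

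To see how many accessible sites each library gave at HoxD, peaks were counted along the cluster. WT replicate 1 had 20 peaks in the cluster and WT replicate 2 had 4. Shh-/- replicate 1 had 1 peak and Shh-/- replicate 2 had 11. The genotypes overlapped: the larger and smaller counts were found in each. The mean was 12 ± 11.3 peaks in WT and 6.00 ± 7.07 in Shh-/- (SD, n = 2 each; exact permutation test, two-sided, p = 0.667). The difference of 6.00 was smaller than the SD between libraries in either genotype. With 2 libraries against 2 the smallest p that this test can give is 0.33, so no comparison between the genotypes could pass 0.05. The difference turned to -2.0 peaks without WT replicate 1, and was 14 without WT replicate 2, 1.0 without Shh-/- replicate 1 and 11 without Shh-/- replicate 2.

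The order of the counts follows the length of the lists, which held 39080 and 11973 peaks in WT and 5589 and 18459 in Shh-/-. A list holds no read counts, so depth is unknown from the files, and a peak that was not called does not show that the chromatin was closed. Per 10000 peaks of its own list, the cluster had 5.12 peaks in WT replicate 1 (95% exact binomial interval 3.13 to 7.90) and 3.34 in WT replicate 2 (0.910 to 8.55). Shh-/- replicate 1 had 1.79 (0.0453 to 9.96) and Shh-/- replicate 2 had 5.96 (2.98 to 10.7). These intervals, which cover counting error only, overlap for all 4 libraries. The means were 4.23 ± 1.26 in WT and 3.87 ± 2.95 in Shh-/- (SD, n = 2 each; exact permutation test, two-sided, p = 1.0), and this difference turned to -0.533 without WT replicate 1 and to -1.73 without Shh-/- replicate 1, and was 1.24 without WT replicate 2 and 2.44 without Shh-/- replicate 2.

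Peaks were denser at HoxD than over the genome in each list. The number of HoxD peaks per Mb was 13.6 and 8.90 times the genome-wide number in WT replicates 1 and 2. It was 4.77 and 15.9 times that number in Shh-/- replicates 1 and 2. HoxD peaks covered 9.45% and 1.68% of the gene windows in the WT libraries, and 0.256% and 5.22% in the Shh-/- libraries. The value for Shh-/- replicate 1 rests on its single peak.

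**Figure D1:**
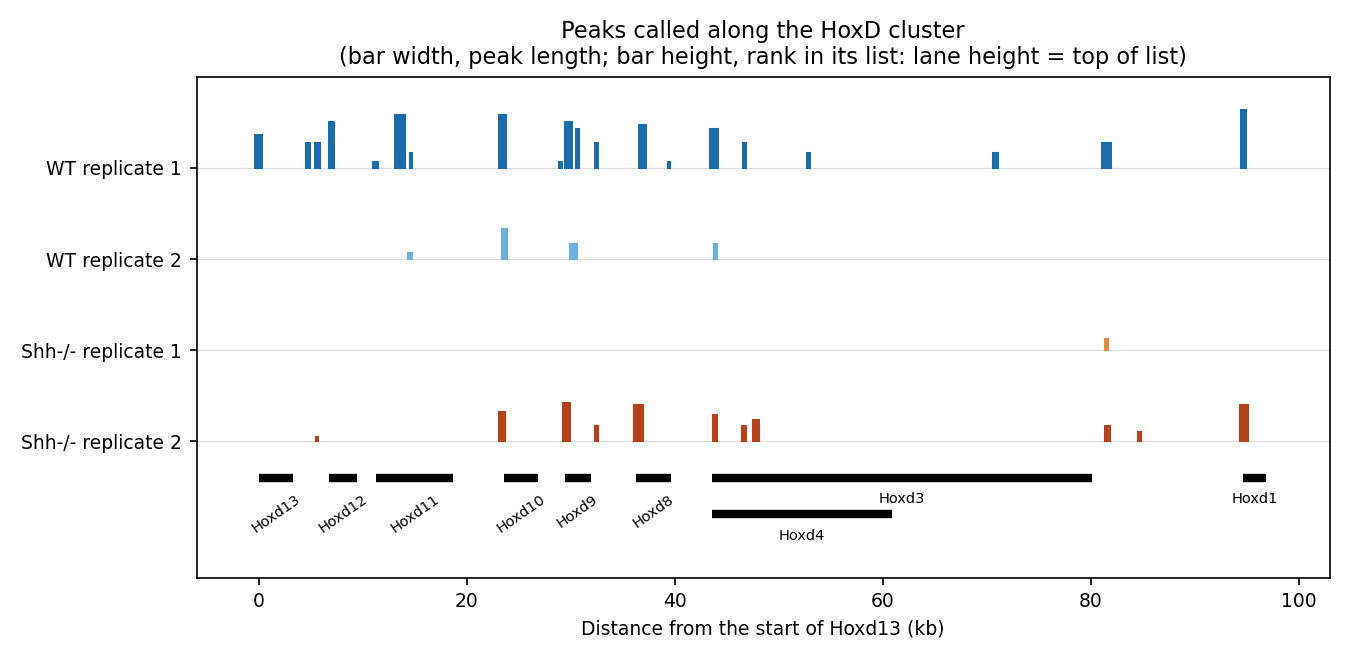
Peaks called along the HoxD cluster in the 4 libraries, against the distance from the start of Hoxd13 in kb. Bar width is the length of the peak, bar height its rank within the list of its library (a full lane is the top of the list) and black bars are gene bodies; WT replicate 1 has 20 peaks, WT replicate 2 has 4, Shh-/- replicate 1 has 1 and Shh-/- replicate 2 has 11.

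Promoters were compared next. A promoter was called if a peak overlapped the window around an annotated transcription start site (TSS), 2 kb on the upstream side and 1 kb on the downstream side. In WT replicate 1, 9 of 9 Hoxd genes had a called promoter, where 60.4% of 21951 protein-coding genes did. In WT replicate 2 it was 4 of 9, beside 39.2% of all genes. No Hoxd promoter was called in Shh-/- replicate 1, 0 of 9, beside 17.2% of all genes, and 6 of 9 were called in Shh-/- replicate 2, beside 51.2%. The libraries stood in the same order at HoxD as over all genes. The mean was 6.50 ± 3.54 genes in WT and 3.0 ± 4.24 in Shh-/- (SD, n = 2 each; exact permutation test, two-sided, p = 0.667). Leaving out libraries moved this difference from 3.5 to 1.0 without WT replicate 1 and to 0.50 without Shh-/- replicate 1, and raised it to 6.00 without WT replicate 2 and 6.50 without Shh-/- replicate 2.

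Over the wider gene windows (gene body and 5 kb on either side), 9 of 9 Hoxd genes held a peak in WT replicate 1 and 7 of 9 in WT replicate 2, where 69.1% and 47.6% of protein-coding genes did. Shh-/- replicate 1 had 1 of 9, beside 24.0% of all genes, and Shh-/- replicate 2 had 9 of 9, beside 59.1%. Neighboring Hoxd genes lie so close that their windows share peaks, so these counts are not independent of each other.

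The genes of the Hoxd13 end came first. Hoxd13, which patterns the digits, had a called promoter in WT replicate 1 alone, by a peak at chr2:74667937-74668577 over its start and first exon. That peak stood at the 55.3 percentile of its list, where 0 is the highest score and 100 the lowest. The window of Hoxd13 held 4, 0, 0 and 1 peaks in WT replicates 1 and 2 and Shh-/- replicates 1 and 2. The peak in Shh-/- replicate 2 lay between Hoxd13 and Hoxd12 and was counted for both genes.

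Hoxd12, the next posterior gene, had 3 promoter peaks in WT replicate 1 and 1 in Shh-/- replicate 2, with 0 in the other libraries. The best ranked of them stood at the 37.0 percentile in WT replicate 1, and the peak of Shh-/- replicate 2 stood at the 94.8 percentile, near the end of its list. The peak shared by both libraries was chr2:74673701-74674184, with the best summit 922 bp before the TSS and its summits lay 202 bp apart. The match to the GLI consensus, which has 1 mismatch, lies inside the peak of WT replicate 1. It lies past the edge of the narrower peak of Shh-/- replicate 2. Both calls were weak, at the 66.3 and 94.8 percentile.

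Hoxd11, which acts in the forearm, had 2 promoter peaks in WT replicate 1 and 1 in WT replicate 2, and 0 in both Shh-/- libraries. The region common to the WT libraries was chr2:74682608-74683041, in coding sequence of an exon, 588 bp after the TSS. Its peak had a score of 25 in WT replicate 1 (79.5 percentile) and of 20 in WT replicate 2 (91.1 percentile), so that it was among the weaker calls of both lists. One of 21 HoxD regions was of this kind, called in both WT libraries and in neither Shh-/- library, beside 2.09% of all regions. None of the 21 HoxD regions showed the reverse pattern, which 0.396% of all regions showed.

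Hoxd10 and Hoxd9 were the posterior genes called most widely. The Hoxd10 promoter region, chr2:74691381-74692128, stood at the 26.9 and 58.3 percentile in the WT libraries and at 59.3 in Shh-/- replicate 2. The Hoxd9 region, chr2:74697565-74699115, held 2 peaks in WT replicate 1, the better of them at 37.0, and stood at 79.9 in WT replicate 2 and at 47.0 in Shh-/- replicate 2. These were the best ranked cluster peaks of WT replicate 2 (Hoxd10) and of Shh-/- replicate 2 (Hoxd9). The summits of the Hoxd9 region lay up to 1080 bp apart. Its WT replicate 2 peak began at chr2:74698245, just before its Shh-/- replicate 2 peak ended at chr2:74698264. Downstream of Hoxd9, chr2:74700607-74700899 was called in WT replicate 1 (66.3 percentile) and Shh-/- replicate 2 (78.7 percentile).

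In the middle of the cluster, the Hoxd8 promoter was called in WT replicate 1 at the 41.4 percentile and in Shh-/- replicate 2 at 50.7, as part of chr2:74704374-74705583. The promoter of Hoxd3, chr2:74711706-74712453 at its most upstream TSS, was called in 3 libraries, at 47.2 and 79.9 in the WT pair and 64.7 in Shh-/- replicate 2. It lies in an overlap of gene models, since the body of Hoxd4 begins there too. The promoter of Hoxd4 itself was called in WT replicate 1 alone, at 79.5. If the start sites of every annotated transcript were used in place of the basic set, the Hoxd3 region counted for Hoxd4 as well, and the numbers of called Hoxd genes became 9, 5, 0 and 7 (an alternative chosen after the data were seen). A further region in the introns of Hoxd3 and Hoxd4, chr2:74714806-74715146, was called in WT replicate 1 (66.3 percentile) and Shh-/- replicate 2 (78.7 percentile).

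At the anterior end, Hoxd1 had the best ranked HoxD peak of any library, at its TSS in WT replicate 1 (chr2:74762781-74763219, score 139, 19.9 percentile). The same promoter was called in Shh-/- replicate 2 at 50.7 and in neither other library. Between Hoxd3 and Hoxd1, an exon of Haglr, a long noncoding RNA of the cluster, held the region chr2:74749403-74750291, called at the 66.3 percentile in WT replicate 1 and at 85.4 and 78.7 in the Shh-/- pair. This was the whole signal of Shh-/- replicate 1 at HoxD, 1 peak at chr2:74749720-74749981 with a score of 34. One of 21 HoxD regions was called in these 3 libraries and not in WT replicate 2, beside 2.26% of all regions.

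No HoxD region was called in all 4 libraries, where 7.97% of all regions were. Of the 21, 3 were called in every library but Shh-/- replicate 1, beside 11.3% of all regions, and 5 in WT replicate 1 and Shh-/- replicate 2 alone, beside 11.0%. A further 9 were called in WT replicate 1 alone, beside 51.6%, and 2 in Shh-/- replicate 2 alone, beside 7.33%. Sharing thus ran across the genotypes, between the lists with more peaks. Of the 19 HoxD regions of WT replicate 1, 47.4% were called in Shh-/- replicate 2 and 21.1% in WT replicate 2, while over the genome these shares were 37.5% and 24.7%. By position, with promoter windows counted first, 14 of the 21 regions overlapped a protein-coding promoter window and 5 that of a noncoding gene alone. Of the rest, 1 lay in an exon and 1 in an intron. The Haglr exon region and the region in the introns of Hoxd3 and Hoxd4 are among the 5, at the promoter windows of Haglr and Hoxd3os1.

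The other Hox clusters gave counts of similar size, by the same rule. HoxA, with 11 genes, had 26 and 3 peaks in WT and 3 and 15 in Shh-/-. HoxB, with 10 genes, had 19 and 4 in WT and 1 and 9 in Shh-/-, and HoxC, with 9 genes, had 16 and 4 in WT and 5 and 6 in Shh-/-. HoxD was the cluster in which the promoters of all its genes were called in WT replicate 1, with 10 of 11 in HoxA, 7 of 10 in HoxB and 7 of 9 in HoxC. In Shh-/- replicate 1, HoxD and HoxB had 0 called promoters while HoxA and HoxC had 2 each. Whether HoxD differs from the other clusters between genotypes was not tested.

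**Figure D2:**
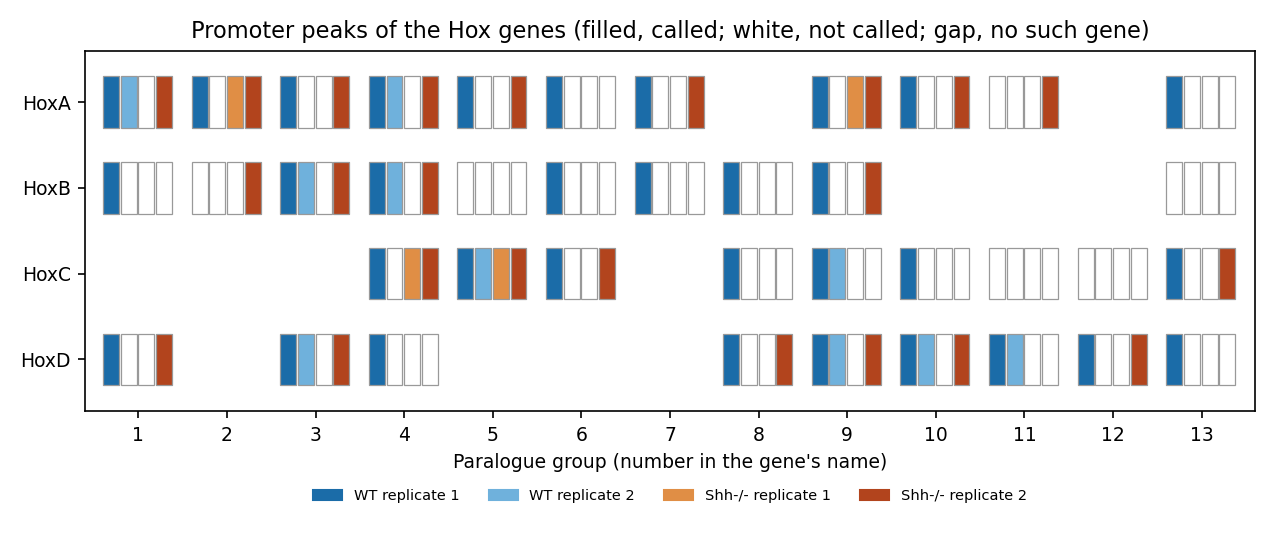
Called promoters of the genes of the 4 Hox clusters, by paralogue group on the horizontal axis and cluster on the vertical axis, with 1 box for each library in the order WT replicates 1 and 2, Shh-/- replicates 1 and 2. Filled boxes are called and white boxes are not; in the HoxD row 9, 4, 0 and 6 genes are called, and Hoxc5 is the single Hox gene called in all 4 libraries.

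HoxD peaks ranked low in their lists. Apart from an alternative that dropped peaks scoring under 50, the score was used only to order the peaks of a list. It cannot be compared between lists, and the files do not state its scale. Cluster peaks of WT replicate 1 had scores of 20 to 139 with a median of 32, against a list median of 45, and those of WT replicate 2 had 20 to 41 with a median of 26, against 49. Those of Shh-/- replicate 2 had 24 to 87 with a median of 46, against 78, and the one peak of Shh-/- replicate 1 had 34, against 69. The median percentile of HoxD peaks was 66.3, 79.9, 85.4 and 71.1 in the same order as the lists above, so that in each library it lay in the lower-scoring part of the list. Low ranks were not particular to HoxD. The medians in that order were 55.3, 74.1, 85.4 and 71.1 in HoxB and 66.3, 63.3, 76.0 and 54.8 in HoxC. In HoxA they were 47.2, 79.9, 32.6 and 71.1. In the better-scoring part, above the median rank, were 8 of 20 and 0 of 4 HoxD peaks of the WT libraries, and 0 of 1 and 1 of 11 of the Shh-/- libraries.

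This rank sets what can be compared at equal list size. When only the top 5589 peaks by score were kept from every list, as many as the shortest holds, WT replicate 1, WT replicate 2 and Shh-/- replicate 2 had 0 HoxD peaks, and Shh-/- replicate 1, whose whole list was kept, had 1. The difference in cluster peaks then turned from 6.00 to -0.50. The HoxD differences between libraries therefore lie among peaks of lower score. HoxB gave the same counts at this list size, 0 and 0 in WT and 1 and 0 in Shh-/-. HoxA kept 1 and 0 peaks in WT and 3 and 4 in Shh-/-, and HoxC 0 and 0 in WT and 5 and 2 in Shh-/-.

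**Figure D3:**
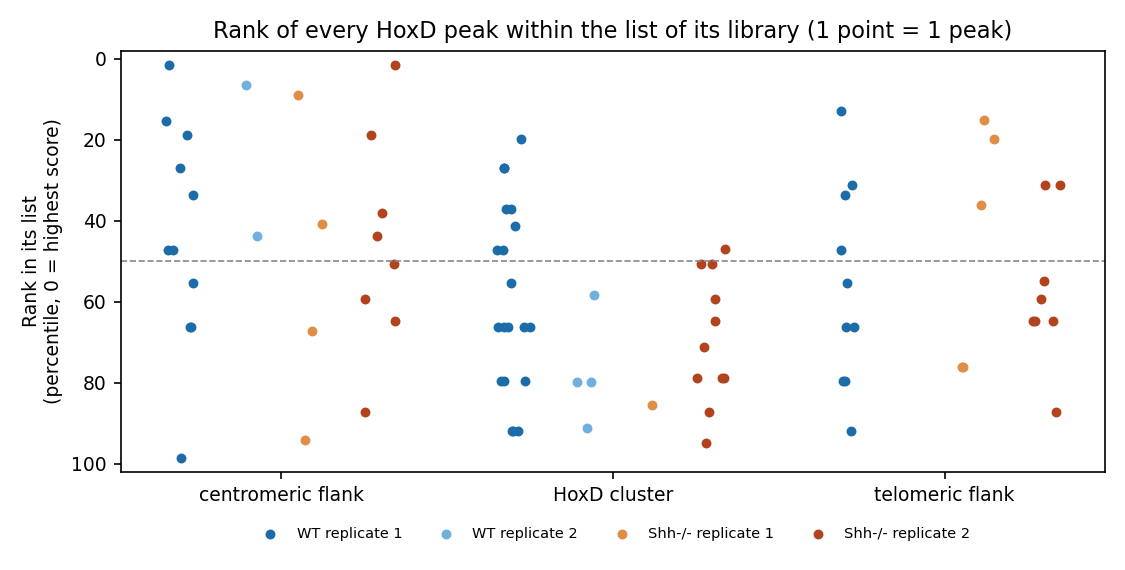
Rank of each peak of the HoxD cluster and its flanks within the list of its own library, as a percentile on the vertical axis (0 is the highest score; the dashed line is the middle of the list), by window and library on the horizontal axis. Cluster peaks sit mostly under the dashed line, from 19.9 in WT replicate 1 downward, while the best flank peaks, at 1.54 to 8.81, are at the Atf2 promoter.

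To ask whether the gene-poor flanks behaved like the cluster, peaks were counted in the 800 kb on each side. The centromeric flank had 11 and 2 peaks in WT and 4 and 8 in Shh-/-. The telomeric flank had 10 and 0 peaks in WT and 5 and 8 in Shh-/-. Shh-/- replicate 1, with 1 peak in the cluster, thus had 9 peaks in the flanks, and WT replicate 2, with 4 in the cluster, had 2.

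Per 10000 peaks of its list, the centromeric flank had 2.81 peaks in WT replicate 1 (95% exact binomial interval 1.41 to 5.04), 1.67 in WT replicate 2 (0.202 to 6.03), 7.16 in Shh-/- replicate 1 (1.95 to 18.3) and 4.33 in Shh-/- replicate 2 (1.87 to 8.54). The telomeric flank had 2.56 in WT replicate 1 (1.23 to 4.71), 8.95 in Shh-/- replicate 1 (2.91 to 20.9) and 4.33 in Shh-/- replicate 2 (1.87 to 8.54). WT replicate 2 had 0 of 11973, for which the same interval reaches up to 3.08 (3 counts, the limit that a count of 0 allows, are 2.51 per 10000). In both flanks the Shh-/- libraries lay above the WT libraries, without overlap of the points but with overlap of the exact counting intervals.

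The mean of the centromeric flank was 2.24 ± 0.809 in WT and 5.75 ± 2.00 in Shh-/- (SD, n = 2 each), a difference of -3.50. The mean of the telomeric flank was 1.28 ± 1.81 in WT and 6.64 ± 3.26 in Shh-/- (SD, n = 2 each), a difference of -5.36. Both gave p = 0.33 (exact permutation test, two-sided), the smallest value possible with these numbers, and so neither passes 0.05. The telomeric difference moved to -3.05 without Shh-/- replicate 1, and the centromeric to -2.09. At equal list size the outcome rested on how ties at the limit were treated. With tied peaks taken by position, the points overlapped, with 1.79 and 3.58 in WT and 7.16 and 3.58 in Shh-/- for the centromeric flank and 1.79 and 0 in WT and 8.95 and 0 in Shh-/- for the telomeric flank. With all tied peaks kept, which was chosen after the data were seen, they were apart again, with 1.79 and 3.10 in WT and 7.16 and 3.38 in Shh-/- for the centromeric flank and 1.79 and 0 in WT and 8.95 and 3.38 in Shh-/- for the telomeric flank. In Shh-/- replicate 2 the score at the limit was 144, shared by 347 peaks, and both of its best telomeric peaks had that score.

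The lists also differed in makeup. In WT replicate 2, 68.0% of all peaks overlapped a protein-coding promoter window, beside 37.2% in the other WT library and 58.5% and 59.7% in the Shh-/- pair. Counting only peaks outside such windows, per 10000 such peaks of the list, gave 2.85 and 0 in WT and 12.9 and 6.72 in Shh-/- for the centromeric flank. The telomeric flank gave 3.67 and 0 in WT and 21.6 and 9.40 in Shh-/- by the same measure, which was chosen after the data were seen. The points of the genotypes stayed apart, with p = 0.33 in both flanks (exact permutation test, two-sided).

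**Figure D4:**
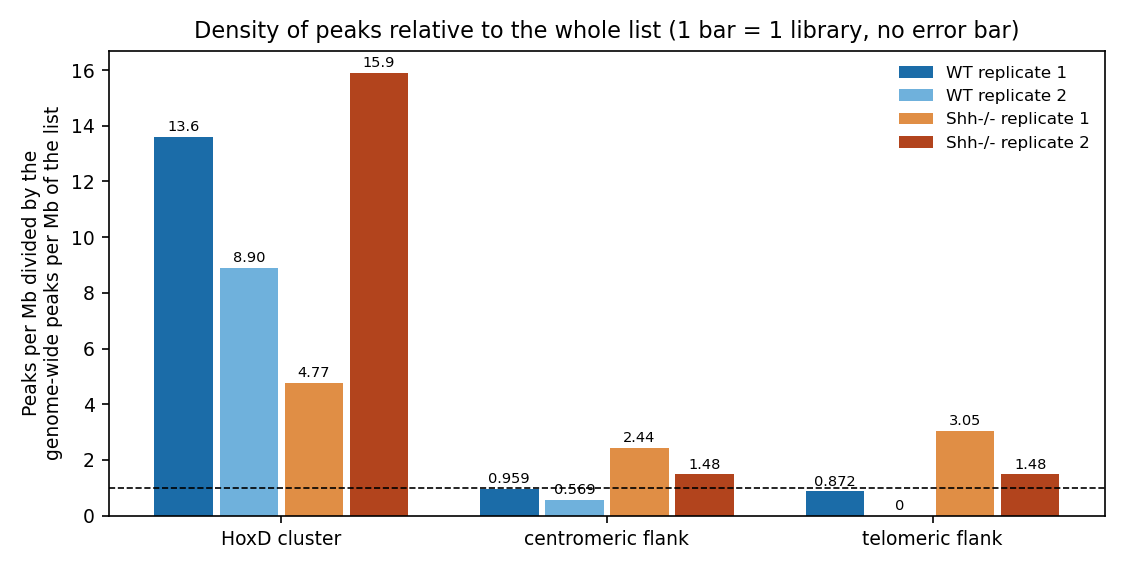
Peaks per Mb in the HoxD cluster and its 2 flanks, divided by the genome-wide peaks per Mb of the same list, with 1 bar for each library; the dashed line at 1 is the genome-wide density. The cluster stands at 4.77 to 15.9 in all libraries, while the flanks are at or below 0.959 in WT and at 1.48 to 3.05 in Shh-/-.

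The balance between the flanks was similar in 3 of the libraries. The telomeric flank held 47.6% of the flank peaks in WT replicate 1 (10 of 21, 95% exact binomial interval 25.7% to 70.2%), 55.6% in Shh-/- replicate 1 (5 of 9, 21.2% to 86.3%) and 50% in Shh-/- replicate 2 (8 of 16, 24.7% to 75.3%). WT replicate 2 had 0 of 2, which allows up to 84.2% by the same interval. The difference of the means, -29.0 percentage points (exact permutation test, two-sided, p = 0.33), rests on WT replicate 2, and was -5.16 without it and -52.8 without WT replicate 1.

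**Figure D5:**
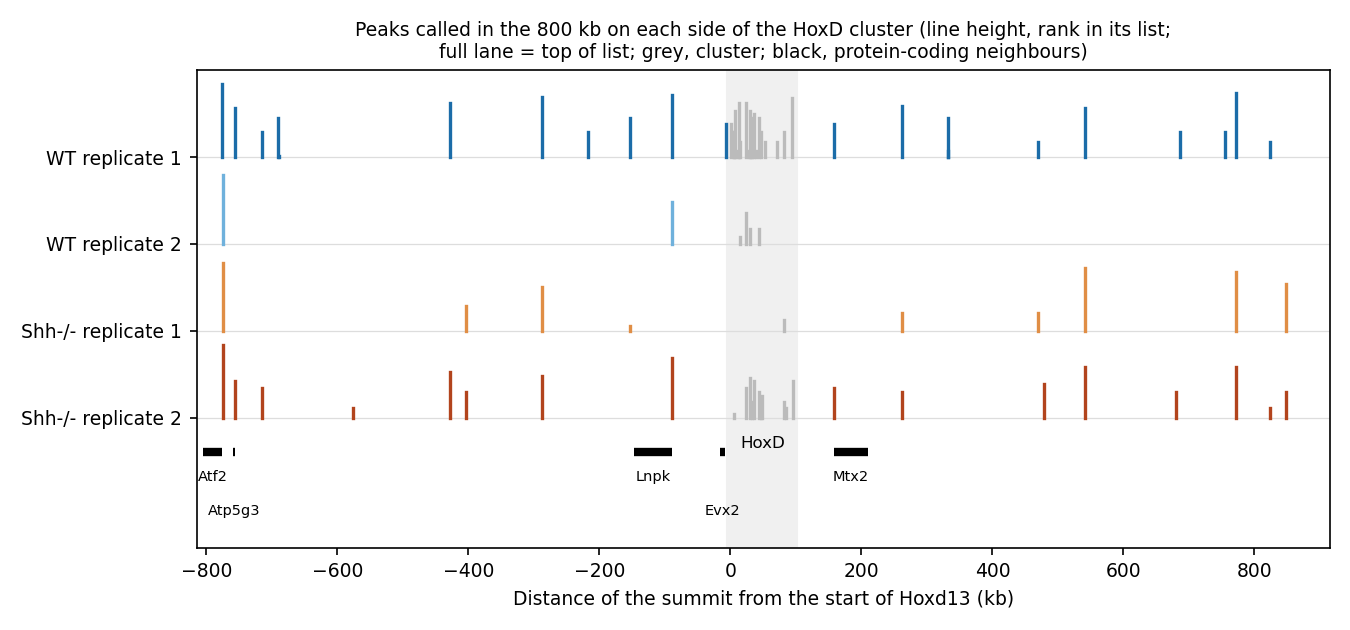
Peaks in the 800 kb on each side of HoxD in the 4 libraries, by the distance of the summit from the start of Hoxd13 in kb; line height is the rank within the list (a full lane is the top of the list), grey lines and shading mark the cluster and black bars are protein-coding neighbors. WT replicate 2 has 2 flank peaks, both at promoters of Atf2 and Lnpk, while the other libraries have peaks at -287.4, 262.5, 541.0 and 771.7 kb.

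Few protein-coding genes lie in the flanks, and their promoters made up part of the calls. Atf2, a transcription factor of the stress response, was called in all 4 libraries at chr2:73892056-73893328, at the 1.54, 6.42, 8.81 and 1.64 percentile, which made it the best ranked flank peak of each. Lnpk, which shapes the endoplasmic reticulum, was called in WT replicate 1 (15.3), WT replicate 2 (43.7) and Shh-/- replicate 2 (18.9). Atp5g3, a subunit of the mitochondrial ATP synthase, was called in WT replicate 1 and Shh-/- replicate 2, as was Mtx2, a mitochondrial outer membrane protein. Evx2, a homeobox gene next to Hoxd13, was called in WT replicate 1 alone, at the 55.3 percentile. Outside these promoters the flanks held 16 and 0 peaks in the WT libraries and 8 and 12 in the Shh-/- libraries.

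Away from these promoters, 4 flank regions were called in WT replicate 1 and both Shh-/- libraries but not in WT replicate 2, of 27 flank regions in all, beside 2.26% of all regions genome-wide. The centromeric one, chr2:74380708-74381304, lies between genes, 197 kb from the nearest coding TSS, that of Lnpk. It stood at the 18.8 percentile in WT replicate 1 and at 40.7 and 43.8 in the Shh-/- pair. Each of these ranks was better than the best HoxD peak of the same library, which stood at 19.9, 85.4 and 47.0.

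The telomeric ones were 3. The region chr2:74930630-74931002, 105 kb from the TSS of Mtx2 and between genes, had summits within 12 bp of each other in the 3 libraries and stood at 31.1, 76.0 and 64.7. The region chr2:75208810-75209908, in an intron of the noncoding gene 2600014E21Rik, stood at 33.7, 15.2 and 31.1, and was the best telomeric peak of Shh-/- replicate 1. Its summits lay up to 448 bp apart. The region chr2:75439465-75440240, in an intron of Gm13658, stood at 12.8, 19.9 and 31.1, and was the best telomeric peak of WT replicate 1, while in Shh-/- replicate 2 both regions tied for the best place. Distal regions of both flanks thus were called in both genotypes, and were missing from the list with the highest share of promoter peaks.

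Both flanks held 1 region called in both Shh-/- libraries and in neither WT library, 2 of 27, beside 0.396% of all regions. The centromeric one, chr2:74264999-74265373, lay 313 kb from the TSS of Lnpk, with summits 17 bp apart, and stood at the 67.1 and 64.7 percentile in the Shh-/- pair. The telomeric one, chr2:75515514-75516232, lay nearest to the TSS of Hnrnpa3, with summits 73 bp apart, and stood at 36.2 and 64.7. None of 27 flank regions was called in the WT pair alone, beside 2.09% of all regions. These are counts of 1 to 2 regions in 2 embryos of each genotype, and no test of them was made. WT replicate 2 had 0 peaks outside protein-coding promoter windows in either flank. For such flank regions, absence from the WT lists thus rests on WT replicate 1 alone. At equal list size neither Shh-/- region was called in both libraries.

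Of motifs searched on both strands in 200 bp around the summit, TGGGTGGTC, the consensus bound by GLI proteins, with at most 1 mismatch was found in 1 of 21 HoxD regions (4.76%) and 0 of 27 flank regions, beside 5.62% of all regions. CTCGTAAA, a motif of the HOX13 proteins, was found in 0 of 21 HoxD regions and 1 of 27 flank regions (3.70%), beside 0.152%. That region, chr2:74999998-75000237 in the telomeric flank, was called in WT replicate 1 alone. A second HOX13 motif, CCAATAAA, was found in none of the 48 regions, beside 0.553% genome-wide, and AGGGGGCG, a core of the CTCF motif, in 1 of 21 HoxD regions, at Hoxd8, beside 3.11%. None of the 4 motifs contains another, and a match is a description of the sequence only.

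The labels could be checked against other loci only by calls. The promoter of Shh had no peak in any of the 4 libraries, so the lists cannot check the null allele. Gli1, a direct target of SHH signaling, had a called promoter in both WT libraries and in neither Shh-/- library, a pattern that 1.53% of all protein-coding genes showed. Prrx2, a marker of limb bud mesenchyme, had it too. So did Hoxd11 and, in the HoxC cluster, Hoxc9, so that the pattern was not particular to HoxD among Hox clusters. Of 20 limb patterning genes 16, 11, 6 and 13 were called in the order of the lists above, where 60.4%, 39.2%, 17.2% and 51.2% of all protein-coding genes were. Gli1 was the only 1 of these 20 called in the WT pair alone, while 5 were called in all 4 libraries (Gli3, Ptch1, Fgf10, Tbx3 and Etv5). The paper names Ptch1 and Grem1 as targets of SHH signaling too, and Grem1 was called in WT replicate 2 and Shh-/- replicate 2. Of 10 markers of limb bud mesenchyme, 10, 4, 5 and 7 were called, with Prrx1 and Fgf10 called in all 4 libraries. Tbx5, which marks the forelimb, and Hand2, a posterior regulator, were called in WT replicate 1 alone. Of 6 ectoderm markers 2, 0, 0 and 2 were called, of 6 markers of endothelium and blood 1, 0, 0 and 1, of 3 markers of muscle progenitors 3, 1, 0 and 3, and of 3 hindlimb genes 3, 1, 0 and 2. A called promoter does not measure the share of a cell type, and the part of cell makeup in the HoxD calls was not tested.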

How the data were processed

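ATAC-seq peaks of 2 WT and 2 Shh-/- posterior forelimb buds were analyzed, with libraries grouped by the genotype and number in their titles. The authors mapped paired-end reads to mm10 and called peaks in each library with MACS2 (q-value cutoff 0.05, fixed window 200 bp). Bowtie2 2.2.5 and MACS2 2.1.0 are named in the submitters' processing notes; read filters and any Tn5 shift are not given in the sources used here. Each deposited peak has a score, used for ranks within its list (tied scores share the middle rank). Beyond ranks it served only the alternative of a score of at least 50. The lists hold no read counts, so the study's limma test on signal was not repeated here.

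Gene windows and promoters followed GENCODE M21 (basic set), and peaks overlapping by at least 1 bp were merged. Group means were compared by two-sided exact permutation over libraries (Python 3.11.15, numpy 2.4.6, scripts tested on simulated data). Sequences were read from GRCm38.p6 with pysam 0.24.0, and stretches of UTR were not printed. Alternatives were equal list size (5589 peaks), a score of at least 50, summit position, narrower windows, flanks of 400 kb, distal peaks alone, summits within 200 bp and leaving out each library. Named were all 9 Hoxd genes, cluster regions called in at least 2 libraries, best ranked peaks, and flank regions called in at least 3 libraries or in 1 genotype's pair alone; the Hoxd13 and Hoxd4 promoter peaks and the region with the HOX13 motif were added after their values were seen. The members and gene lists were chosen with earlier results of these data known.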

Additional observations from a re-analysis of the deposited data

How the results depend on the processing

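Of 81 alternative values, 68 kept their sign, 5 went to 0 and 8 reversed. The 68 include all values with the replicate number as a block, which could not change by construction. Counts of regions are among the 81 too. They have no sign and were taken as kept if above 0. Values that kept their sign could still differ in size. The difference in cluster peaks fell from 6.00 to 0.50 once peaks scoring under 50 were dropped, and rose to 14 without WT replicate 2. That in called promoters fell from 3.5 to 0.50 without Shh-/- replicate 1, and rose to 6.50 without Shh-/- replicate 2. The telomeric share went from -29.0 to -2.78 percentage points at equal list size, and to -52.8 without WT replicate 1. At equal list size the difference (WT minus Shh-/-) in HoxD cluster peaks reversed from 6.00 to -0.50 and that per 10000 list peaks from 0.355 to -0.895, the difference in called Hoxd promoters moved from 3.5 to 0, and regions of the WT pair alone went from 1 to 0, of the Shh-/- pair alone from 2 to 0 and of WT replicate 1 with Shh-/- replicate 2 alone from 10 to 0. Keeping ties at the limit, chosen after the data were seen, gave the same -0.50, -0.895 and 0, but moved the telomeric flank from -3.58 to -5.27 and the telomeric share from -2.78 to -27.8. By construction these lists hold fewer peaks. With a score of at least 50 the difference per 10000 was -0.253, and the cause was not tested. That cut lay above the median scores of the WT lists (45 and 49) and below those of the Shh-/- lists (69 and 78). It thus kept a larger share of the Shh-/- lists. Leaving out 1 library gave -2.0 (without WT replicate 1) to 14 (without WT replicate 2) for cluster peaks, -1.73 (without Shh-/- replicate 1) to 2.44 (without Shh-/- replicate 2) per 10000, 0.50 to 6.50 for called promoters, -4.91 to -2.09 for the centromeric flank, -7.67 to -3.05 for the telomeric flank and -52.8 to -5.16 percentage points for the telomeric share. The flank differences, per 10000 peaks or as a share, kept their sign under every alternative run. The raw flank counts were not among these alternatives. In the centromeric flank these counts were 11 and 2 in WT and 4 and 8 in Shh-/-. In the telomeric flank they were 10 and 0 in WT and 5 and 8 in Shh-/-. The raw counts of the genotypes thus overlapped in both flanks. The telomeric share with distal flank peaks alone had no value, since WT replicate 2 had no such peak.

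The replicate numbers only name embryos. With the replicate number as a block the differences stayed 6.00, 0.355, 3.5, -3.50, -5.36 and -29.0. This was so by construction, since the mean of paired differences equals the difference of the means. The smallest p of the exact sign-flip test was 0.5, so the block could change no call. Calls of same-numbered libraries deviated in opposite directions from their group means over the 44692 regions (r = -0.222, a description). Crossing the numbers, chosen after the data were seen, left each difference as it was, again by construction.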
